A study of Mus musculus with 4 samples.

Results

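The genes that make, break down and read retinoic acid were followed through whole embryonic noses of mice at embryonic day 14.5. They are 10 genes chosen by name among the 32285 features of the count matrices: the retinaldehyde dehydrogenases Aldh1a1, Aldh1a2 and Aldh1a3, the degrading enzymes Cyp26a1 and Cyp26b1, the nuclear receptors Rara, Rarb and Rarg, and the cellular retinoic acid binding proteins Crabp1 and Crabp2. Each symbol matched 1 feature, and GENCODE M21 annotates all 10 as protein coding on GRCm38. Retinoic acid is made from vitamin A inside a cell by oxidation of retinol to retinaldehyde and then by an Aldh1a enzyme to the acid, which diffuses to nearby cells. There it is carried by Crabp proteins, binds a receptor of the Rar family paired with a retinoid X receptor on DNA, or is oxidised by a Cyp26 enzyme and cleared. Cells that hold an Aldh1a enzyme are commonly spoken of as sources and cells that hold a Cyp26 enzyme as sinks, and retinoic acid from the frontonasal mesenchyme and the nasal placode is known to shape the early face and nose.

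The study asked what loss of the transcriptional coactivators Yap and Taz in the Sox10-expressing neural crest lineage does to nasal glia and neurons. There were 2 control and 2 mutant libraries, made with the 10x 3′ chemistry from dissociated noses that had been frozen as cells. The mutants carried a Cre transgene under Sox10 control, Tg(Sox10-cre)1Wdr, with floxed alleles of Yap and Taz; the series' design gives them 1 floxed and 1 wild-type allele of Yap and both alleles of Taz floxed. The controls are titled WT and labelled C57Bl/6J, whereas the series' design describes them as floxed at both genes without Cre, and these descriptions were not reconciled. All animals shared the C57Bl/6J background in their labels. Sox10 acts in the neural crest and in its glial and pigment derivatives, so deletion is not set to occur in every cell of the nose. Which cell classes carried the deletion was not measured. The labels name 2 providers of library preparation and sequencing without assigning libraries to them, so provider and genotype cannot be told apart, and a further sample that the labels mention was not analysed here.

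After filtering to at least 500 genes and at most 10% mitochondrial UMIs (unique molecular identifiers, each marking 1 captured molecule), 4075, 2474, 2995 and 4195 cells remained in control 1, control 2, mutant 1 and mutant 2, with 19767873 to 35331450 UMIs per library. Median depth was lowest in mutant 2 (5282 UMIs per cell) and highest in mutant 1 (8549). Pairs of libraries shared 3 to 5 barcodes. Cells were sorted into classes by lists of marker genes that contain none of the 10 members, which placed 8558 of 13739 cells in 15 classes; the other cells met no gate. Testing was limited to 9 classes holding 20 or more cells in each of the 4 libraries: glia, olfactory epithelial, keratinocyte, endothelial, mural, macrophage, chondrocyte, osteoblast and mesenchyme, the last with 1503, 922, 1252 and 1628 cells. Of mesenchyme cells, 119 to 213 per library lay within 0.1 of the score that bounded the class. Levels are given as CPM, the UMIs of a gene per 1000000 UMIs summed over the cells of a class in a library, so a lower level can mean fewer expressing cells or less RNA in each, and these cannot be told apart from the sums alone. Over all cells Yap1 was at 65.0, 65.2, 56.4 and 56.0 CPM in control 1, control 2, mutant 1 and mutant 2. Wwtr1 (Taz) was at 118, 145, 123 and 132 CPM, but a 3′ read can lie outside the deleted part of a gene, so neither value checks the labels.

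Rarb and Cyp26a1 are classic direct targets of the receptors, which bind repeats of a 6-base half-site, and the promoters of these members are shown because theirs alone among the members' windows held such a repeat at a spacing of 5 bases. The windows are from RefSeq on GRCm38.p6, at chr14:16575477-16575726 on the minus strand for Rarb and chr19:37697558-37697807 on the plus strand for Cyp26a1. Capitals mark the 2 half-sites, read 5′ to 3′ along the gene's strand.
Rarb: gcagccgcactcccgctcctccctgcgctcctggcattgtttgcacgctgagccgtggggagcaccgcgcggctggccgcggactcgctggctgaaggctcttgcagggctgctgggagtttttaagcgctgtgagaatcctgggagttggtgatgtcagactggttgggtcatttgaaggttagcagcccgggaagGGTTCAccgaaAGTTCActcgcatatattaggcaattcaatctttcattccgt
Cyp26a1: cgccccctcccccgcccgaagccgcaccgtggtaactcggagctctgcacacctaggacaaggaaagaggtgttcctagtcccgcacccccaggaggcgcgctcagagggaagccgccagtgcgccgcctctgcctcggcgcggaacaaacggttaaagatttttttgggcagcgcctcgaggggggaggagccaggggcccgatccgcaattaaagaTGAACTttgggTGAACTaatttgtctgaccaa
The search took any pair, in the same direction and on either strand, of the half-site AGGTCA, the half-site GGGTCA, the half-site AGTTCA and the half-site GGTTCA. A spacing of 5 bases was found in 29 of 32851 RefSeq promoter windows of this length (0.0883%), spacings of 1 and 2 bases in 54 (0.164%) and 57 (0.174%). None of the 13 windows of members held a spacing of 1 or 2. The Rarb repeat lay 53 to 37 bases before the transcript start that RefSeq gives for this window, which lies inside the span of the gene in the annotation of the count matrices. The Cyp26a1 repeat lay 32 to 16 bases before the RefSeq start of its own window, on the opposite strand, so the letters shown are the reverse complement of AGTTCA repeated. No window of Aldh1a3 or Crabp2 was used. A match is a description of letters and not evidence of a bound receptor.

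Among the enzymes that make retinoic acid, the Aldh1a genes were highest in different cell classes, though the classes were not exclusive to 1 gene. Aldh1a1 (chr19:20492715-20643465, plus strand) was found mainly in respiratory epithelial cells, a class with as few as 12 cells in control 2: it was at 29.8, 6.38, 18.0 and 31.5 CPM there in control 1, control 2, mutant 1 and mutant 2, and those cells held 82 of its 135 UMIs (60.7%). Its level in control 2 was the lowest, and the mutant libraries fell within the range of the controls and just above it. In macrophages, mural cells, endothelial cells and osteoblasts it had 0 UMIs in every library.

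Aldh1a2 (chr9:71215789-71296243, plus strand), the dehydrogenase that supplies most retinoic acid to the early embryo, was a gene of mesenchyme, mural cells and cells gated as meningeal mesenchyme. In mesenchyme it was at 22.6, 14.0, 18.4 and 21.8 CPM (19.2 ± 3.92, SD, n = 4 libraries). In mural cells, the pericytes and smooth muscle around vessels, it was at 27.6, 22.8, 108 and 56.6 CPM. The mural level exceeded the mesenchyme level in all 4 libraries, though mural cells also carried high levels of mesenchyme markers, as given below. By edgeR's quasi-likelihood test of each class against the mean of the other 8, Aldh1a2 was higher in mural cells by 4.19 ± 0.40 on the log2 scale (SE; adjusted p = 1.79e-10) and in mesenchyme by 2.60 ± 0.32 (adjusted p = 1.90e-08). Meningeal cells, with 58, 53, 5 and 23 cells, were too few to test and carried 139, 95.6, 385 and 101 CPM, the highest of any class in each library. Cells that met no gate held 52.6% of all 2329 Aldh1a2 UMIs, so the gated classes leave out more than they hold. In endothelial cells it was lower than elsewhere (fell by 2.92 ± 1.10, edgeR adjusted p = 0.0326), a call that was lost without control 1 and without mutant 2, and endothelial cells held 2 UMIs in all. The keratinocyte call (fell by 2.00 ± 0.73, edgeR adjusted p = 0.0222) was lost without any 1 of the 4 libraries and rested on 10 UMIs.

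Aldh1a3 (chr7:66390890-66427517, minus strand), the dehydrogenase of placodal and epithelial tissue, was highest in the olfactory epithelial class, at 130.1, 187, 89.6 and 131 CPM (134 ± 40.0, SD, n = 4). The libraries of both groups spanned one another. In control 2, 27 of its 62 olfactory epithelial UMIs came from 1 cell. It was higher there than in the other classes by 4.82 ± 0.28 on the log2 scale (edgeR adjusted p = 3.99e-16), and also higher in glia (2.38 ± 0.59, adjusted p = 0.00304) and osteoblasts (2.15 ± 0.42, adjusted p = 9.81e-05). The glial level varied from 11 CPM in control 1 to 55.5 CPM in control 2 and the osteoblast level from 1.96 to 35.8 CPM. Respiratory epithelial cells, not among the tested classes, held 120 Aldh1a3 UMIs, at 23.4, 0, 62.5 and 24.6 CPM. Over cells thinned to 3000 UMIs each, leaving out shallower ones, 19.5%, 20%, 14.8% and 20.7% of olfactory epithelial cells had an Aldh1a3 UMI. In macrophages, which should lack the gene, the thinned share was 0% in 3 libraries and 1.89% in control 2. Median depth before thinning was 7611 to 14557.5 UMIs in olfactory epithelial cells and 7467 to 10396 UMIs in macrophages.

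**Figure D1:**
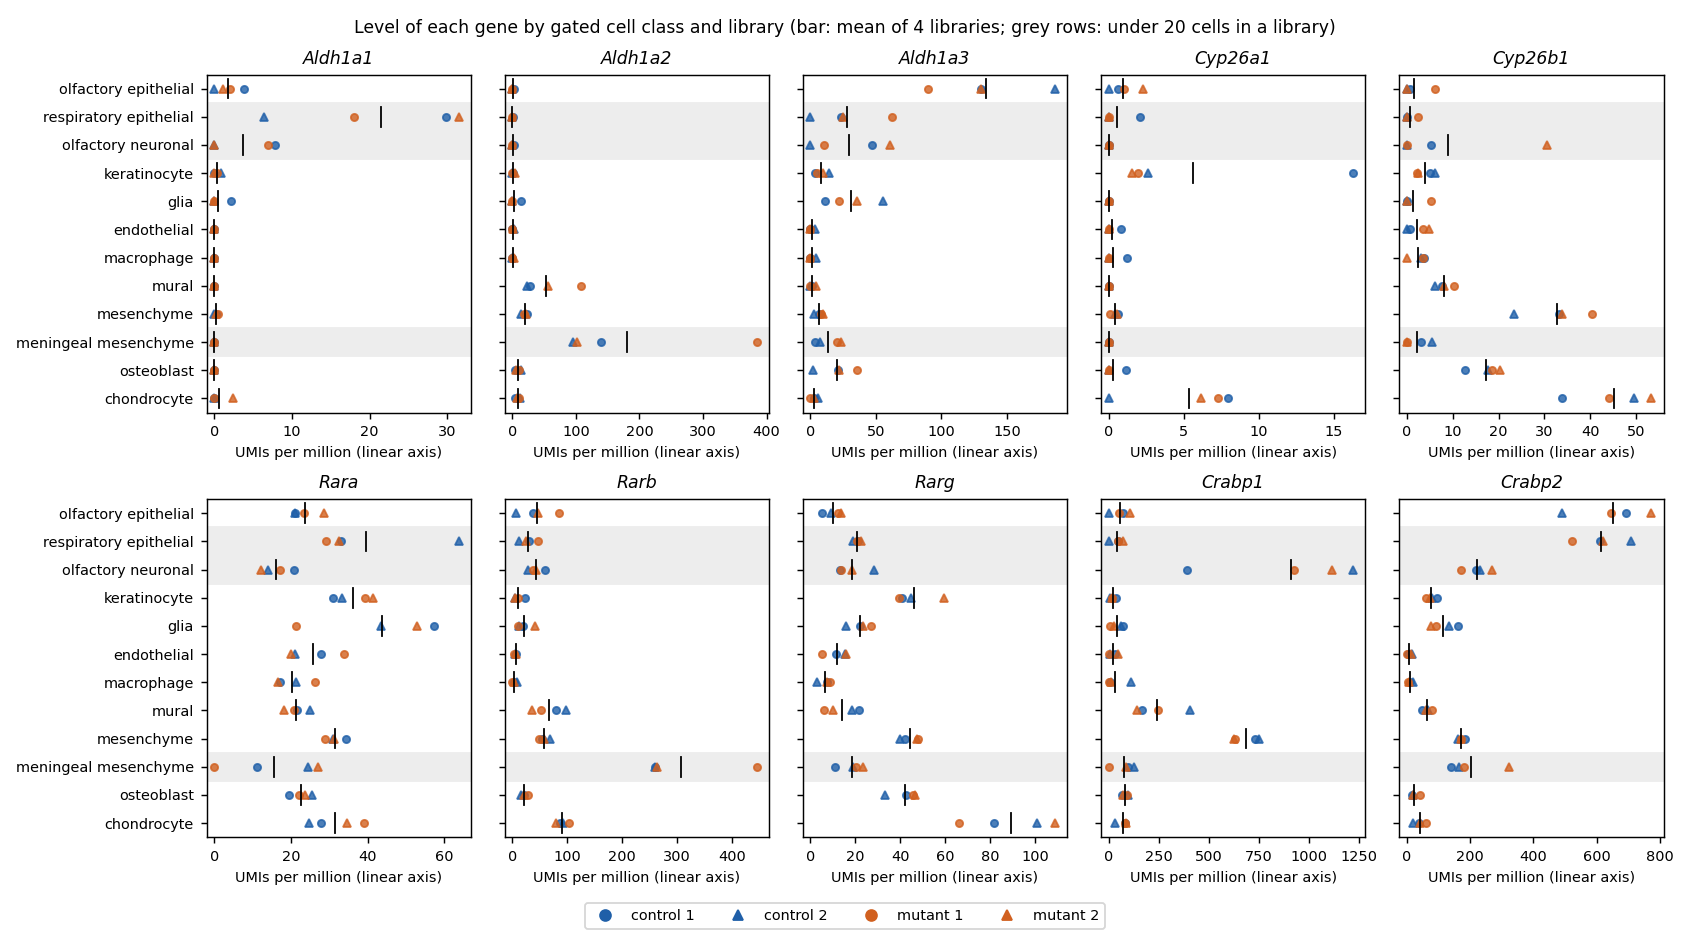
Level of each of the 10 genes in 12 cell classes, as UMIs per 1000000 UMIs (CPM) on a linear axis, 1 point per library, a bar at the mean of the 4, and grey rows for classes with under 20 cells in a library. Among the other classes, Aldh1a2 stands highest in mural cells, Aldh1a3 and Crabp2 in olfactory epithelial cells, and Cyp26b1 and Rarg in chondrocytes.

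The degrading enzymes differed in abundance, and only Cyp26b1 had counts enough for the test across classes. Cyp26b1 (chr6:84571414-84593908, minus strand), a sink enzyme known from skeletal tissue, was at 33.8, 49.4, 44.0 and 53.3 CPM in chondrocytes (45.1 ± 8.43, SD, n = 4). In mesenchyme it was at 33.1, 23.4, 40.4 and 33.8 CPM (32.7 ± 7.03), and mesenchyme held 44.9% of its 2805 UMIs. The chondrocyte level was above the mesenchyme level in all 4 libraries, though in control 1 by less than 1 CPM. Against the other classes, edgeR found it higher in chondrocytes by 3.11 ± 0.27 on the log2 scale (adjusted p = 1.75e-11), in mesenchyme by 2.60 ± 0.20 (2.33e-13) and in osteoblasts by 1.63 ± 0.31 (7.38e-05). It was lower in olfactory epithelial cells (fell by 2.09 ± 0.58, edgeR adjusted p = 0.00313), which held 7 of its UMIs, and that call was lost without mutant 1. The mesenchyme was thus the class in which Aldh1a2 and Cyp26b1 were both higher than elsewhere by edgeR.

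Cyp26a1 (chr19:37697798-37701536, plus strand), the other degrading enzyme, was scarce, with 176 UMIs in all kept cells, and too scarce for the test across classes. Keratinocytes held 71 of them (40.3%), at 16.3, 2.63, 1.97 and 1.54 CPM. That share came almost wholly from control 1, which held 60 keratinocyte UMIs against 3, 5 and 3 in the other libraries. Chondrocytes were at 7.96, 0, 7.33 and 6.19 CPM, below keratinocytes in both controls and above them in both mutants. Glia, mural cells and the olfactory neuronal class had 0 UMIs.

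Of the receptors, Rara (chr11:98927818-98974942, plus strand) was the most even, from 20.3 ± 4.45 CPM in macrophages to 43.8 ± 16 CPM in glia among the tested classes. It was higher in keratinocytes by 0.44 ± 0.12 on the log2 scale (edgeR adjusted p = 0.00288) and in glia by 0.68 ± 0.21 (0.0165). The glial call was lost without control 1, control 2 or mutant 2, with an adjusted p of 0.495 without control 1. Neighbours in its order of levels differed by less than their spread.

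Rarb (chr14:16430839-16819156, minus strand), a receptor whose own gene responds to retinoic acid, was at 86.6, 93.1, 103 and 79.3 CPM in chondrocytes (90.4 ± 9.91, SD, n = 4). In mesenchyme it was at 54.8, 68.7, 48.6 and 58.0 CPM (57.5 ± 8.39). The chondrocyte level was higher in every library and the ranges did not overlap. EdgeR found it higher than in the other classes in chondrocytes (2.12 ± 0.27, adjusted p = 7.85e-08), mural cells (1.68 ± 0.31, 6.44e-05), mesenchyme (1.43 ± 0.21, 5.15e-07) and olfactory epithelial cells (1.08 ± 0.29, 0.0022). The olfactory epithelial call rested on mutant 1, where 34 of 84 UMIs came from 1 cell, and the adjusted p was 0.226 without it. Untested classes stood higher: meningeal cells had 259.8, 260.5, 446 and 264 CPM and melanocytes, with 3 to 12 cells per library, 409.7, 332, 586 and 109.6 CPM. It was lower in macrophages (fell by 2.72 ± 0.60, edgeR adjusted p = 0.000214), endothelial cells (fell by 2.03 ± 0.48, 0.000749) and keratinocytes (fell by 1.07 ± 0.32, 0.00529), the last call being lost without mutant 2 (adjusted p = 0.0767).

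Rarg (chr15:102234938-102257517, minus strand), a receptor known for cartilage and skin, was highest in chondrocytes at 81.6, 101, 66.0 and 109 CPM (89.3 ± 19.3, SD, n = 4). Keratinocytes (46.0 ± 9.20 CPM), mesenchyme (44.3 ± 3.90) and osteoblasts (41.9 ± 6.00) followed and did not differ from one another beyond their spread. Each of these 4 classes was higher than the mean of the others by edgeR, chondrocytes by 2.12 ± 0.15 on the log2 scale (adjusted p = 1.04e-13) and the other 3 by 1.00 to 1.07 (adjusted p from 1.26e-08 to 2.83e-06). It was lower in macrophages, olfactory epithelial cells, endothelial cells and mural cells, the mural call (fell by 0.78 ± 0.26, edgeR adjusted p = 0.0292) being lost without mutant 1 and without mutant 2 (highest adjusted p = 0.246). Skeletal muscle cells had 0 Rarg UMIs in all 4 libraries.

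The binding proteins were highest in different tested classes, Crabp1 in mesenchyme and Crabp2 in olfactory epithelial cells, but both were higher in mesenchyme than in the other classes. Crabp1 (chr9:54764748-54773110, plus strand) was at 730.4, 749, 632 and 627 CPM in mesenchyme (685 ± 64.2, SD, n = 4), which held 61.6% of its 41182 UMIs. It was higher there than in the other classes by 3.60 ± 0.24 on the log2 scale (edgeR adjusted p = 8.17e-15), and in mural cells by 1.88 ± 0.34 (4.78e-05). The olfactory neuronal class, with as few as 18 cells in a library, was at 389, 1219.9, 923 and 1112 CPM. In a fit of 12 classes with at least 10 cells in each library, added after the data were seen, edgeR placed Crabp1 higher in it by 3.56 ± 0.32 (adjusted p = 7.29e-13), where 22.4% of all genes were called higher. Over thinned cells, 52.1%, 58.3%, 50.8% and 50.5% of mesenchyme cells had a Crabp1 UMI against 1.39%, 11.3%, 2.33% and 1.22% of macrophages. Median depth before thinning was 5100 to 8310.5 UMIs in mesenchyme, below that of macrophages in every library.

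Crabp2 (chr3:87948666-87953376, plus strand), which passes retinoic acid to the receptors, was highest in epithelium of the nasal cavity. It was at 691, 491, 645 and 773 CPM in olfactory epithelial cells (650.1 ± 118, SD, n = 4) and at 609, 709, 521 and 620.3 CPM in respiratory epithelial cells (615 ± 76.8), levels that did not differ beyond their spread. In mesenchyme it was at 184, 161, 173 and 173 CPM (173 ± 9.52). The olfactory epithelial level lay above the mesenchyme level in every library. It was higher in olfactory epithelial cells by 3.84 ± 0.13 on the log2 scale (edgeR adjusted p = 2.08e-22), in mesenchyme by 1.77 ± 0.14 (6.82e-13), in glia by 1.17 ± 0.23 (0.000245) and in keratinocytes by 0.51 ± 0.17 (0.0123). Without control 1 the glial and keratinocyte calls were lost (adjusted p = 0.0557 and 0.221). In the 12-class fit edgeR placed it higher in respiratory epithelial cells by 3.1 ± 0.13 (adjusted p = 1.32e-24), where 22.8% of all genes were called higher. Over thinned cells 72.7%, 40.0%, 77.8% and 79.3% of olfactory epithelial cells had a Crabp2 UMI, against 2.33% to 4.17% of macrophages. The olfactory and respiratory epithelial classes shared markers. Respiratory markers summed to 1103, 479, 1392 and 1384 CPM in olfactory epithelial cells, against 4859, 2394, 8972 and 6583 in their own class. Olfactory epithelial markers summed to 884, 728, 718 and 843 CPM in the respiratory class, against 1729, 1992, 1648 and 1673 in their own.

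Counted by class, 8 members had enough counts for the test across classes, all but Aldh1a1 and Cyp26a1. Mesenchyme had 6 of the 8 higher, with 29.2% of all 11525 tested genes called higher there, and 0 lower (18.4%). Mural cells had 3 higher (15.9% of all genes) and 1 lower (6.98%). Chondrocytes had 3 higher (19.7%) and 0 lower (12.3%). Olfactory epithelial cells had 3 higher (25.0%) and 2 lower (21.6%). Osteoblasts had 3 higher (20.5%) and 1 lower (12.9%), keratinocytes 3 higher (27.1%) and 3 lower (22.1%), and glia 3 higher (12.4%) and 0 lower (7.37%). Endothelial cells had 7 of 8 members lower, all but Rara, against 19.1% of all genes, and 0 higher (21% of all genes). In 4 of those 7, Aldh1a2, Aldh1a3, Crabp1 and Cyp26b1, the call was lost without at least 1 library. Macrophages had 3 lower (29.8%) and 0 higher (28.0%). The median log2 difference of the members was -1.78 in endothelial cells and -2.02 in macrophages. In the 12-class fit 4 of 8 members were lower in endothelial cells (1932 of 11677 genes) and 3 in macrophages (3223 genes).

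Likeness of profile was measured as Pearson's r of log2 of the mean CPM plus 10 across the 9 tested classes, over 10248 genes that reached 20 CPM in a class. These are descriptions over 9 points that share libraries. The genes most like Aldh1a2 were Lin7a (r = 0.99), Pdgfrb (0.98) and Ednra (0.97), Pdgfrb being the receptor that marks mural cells. Those most like Crabp1 were Tmem132c (0.98), AW551984 (0.96) and Shox2 (0.96), and those most like Cyp26b1 were Tnn (0.97), Gsc (0.97) and Clmp (0.96). Aldh1a3 was most like Slc6a15 (0.96) and Crabp2 most like Bclaf3 (0.98), both with their highest level in olfactory epithelial cells. Rarb was most like Mir100hg (0.96), Rarg most like Mbnl2 (0.93) and Rara most like Crebrf (0.92).

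The mesenchyme was then divided by single UMIs of 10 transcription factors that mark its regions, and each member was compared between cells with and without a UMI of the factor, within each library. The members split by region. Among Pax9-positive cells (172, 54, 164 and 155 cells), Aldh1a2 was at 38.3, 58.4, 57.0 and 74.6 CPM against 20.5, 11.1, 11.7 and 15.6 CPM in Pax9-negative cells. The positive cells were higher in all 4 libraries, by 1.85 ± 0.22 on the log2 scale (edgeR adjusted p = 3.89e-05). Aldh1a3 was higher there too, by 1.75 ± 0.27 (adjusted p = 0.000487), at 10.9, 7.62, 23.9 and 33.2 CPM against 6.05, 2.78, 5.47 and 6.82 CPM. Crabp1 went the other way, at 295, 269, 242 and 246 CPM against 789.5, 780.2, 699.8 and 672 CPM, and fell by 1.54 ± 0.06 (edgeR adjusted p = 6.73e-10). Of all genes, 5.02% were called higher and 5.8% lower with Pax9. Of the members 4 were higher, with Rarb (0.78 ± 0.11) and Cyp26b1 (0.59 ± 0.15) beside both dehydrogenases, and 1 was lower. The Cyp26b1 call was lost without control 1 and without mutant 2.

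Six2-positive cells resembled this division. Aldh1a2 was at 51.3, 25.2, 37.9 and 44.1 CPM in them against 18.1, 12.1, 15 and 18.8 CPM in the rest, a difference of 1.32 ± 0.14 on the log2 scale (edgeR adjusted p = 6.91e-06). Rarb was at 88.2, 101, 72.7 and 109 CPM against 49.5, 63.2, 44.4 and 51.1 CPM (0.83 ± 0.10, edgeR adjusted p = 2.94e-05). Both were higher in the positive cells of each library. Crabp1 fell by 1.21 ± 0.07 (edgeR adjusted p = 1.28e-08). In all, 4 members were higher (4.03% of all genes) and 1 lower (3.72%), but the calls of Rara and Cyp26b1 were each lost without at least 1 library. Alx1, a factor of the frontonasal region, gave 3 higher (5.66% of all genes) and 1 lower (6.91%). With Alx1, Crabp1 was at 436, 447, 441 and 347 CPM against 1036, 1007, 809 and 895 CPM (fell by 1.20 ± 0.06, edgeR adjusted p = 4.95e-09), while Crabp2 was higher by 0.42 ± 0.05 and Cyp26b1 by 0.74 ± 0.09. The third higher call, Aldh1a2 (0.59 ± 0.18), was lost without control 2, mutant 1 or mutant 2.

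Cells with Pou3f4 or Foxd1 were also high in the sink enzyme Cyp26b1, but low in Rarb, which was high with Pax9 and Six2. Among Pou3f4-positive cells (65, 29, 104 and 70 cells), Cyp26b1 was at 47.2, 64.7, 67.1 and 60.3 CPM against 32.4, 21.8, 37.3 and 32.3 CPM in the rest, higher in every library (0.90 ± 0.17, edgeR adjusted p = 0.00165). Rarb was at 19.7, 30.2, 13.9 and 30.1 CPM against 56.5, 70.1, 52.7 and 59.6 CPM, lower in every library (fell by 1.45 ± 0.20, edgeR adjusted p = 7.41e-05). These were its 1 higher and 1 lower member, with 3.12% and 5.06% of all genes. Foxd1 likewise had Cyp26b1 higher (0.76 ± 0.13, edgeR adjusted p = 0.00186, 3.63% of all genes). Rarb was lower with Foxd1 (fell by 0.86 ± 0.15, edgeR adjusted p = 0.00217, 4.25% of all genes). Foxd1 was also a marker of the meningeal mesenchyme gate, and mesenchyme cells needed a low score for every other class. Foxd1-positive cells with a high meningeal score, a class high in Rarb and low in Cyp26b1, were therefore left out. The part of this gating in the Foxd1 differences was not tested.

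Osr1, a factor of dermal and other connective tissue, marked cells low in 4 members and high in Crabp2 (higher by 0.29 ± 0.04, edgeR adjusted p = 0.000483), against 3.64% and 3.35% of all genes. Rarb was at 35.8, 44.8, 32.4 and 30.7 CPM with Osr1 against 65.3, 85.4, 63.4 and 73.7 CPM without it (fell by 1.01 ± 0.08, edgeR adjusted p = 1.84e-06). The lower calls of Aldh1a2 and Cyp26b1 with Osr1 were lost without mutant 1 and without mutant 2. Osr2 had 3 members lower (3.26% of all genes), Cyp26b1, Rarg and Crabp1, and 0 higher (4.23%), the Rarg call being lost without control 1, control 2 or mutant 2. Dlx5 had Rarg higher (2.67%), a call lost without any 1 of the libraries, and Crabp1 lower (3.48%; fell by 1.19 ± 0.11, edgeR adjusted p = 6.84e-07). Tbx18 had Rarb lower (3.97%), lost without mutant 1, and 0 members higher (3.05%). Shox2 had Aldh1a2 lower (2.13%), lost without control 1 and without mutant 1, and 0 members higher (2.65%). Cells with a UMI of a factor were deeper than cells without in most cases (with Pou3f4, medians of 6950.0, 7346, 10173 and 5993 UMIs against 6578, 6503, 8152 and 5064), and the part of depth beyond the scaling to CPM was examined only by thinning.

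**Figure D2:**
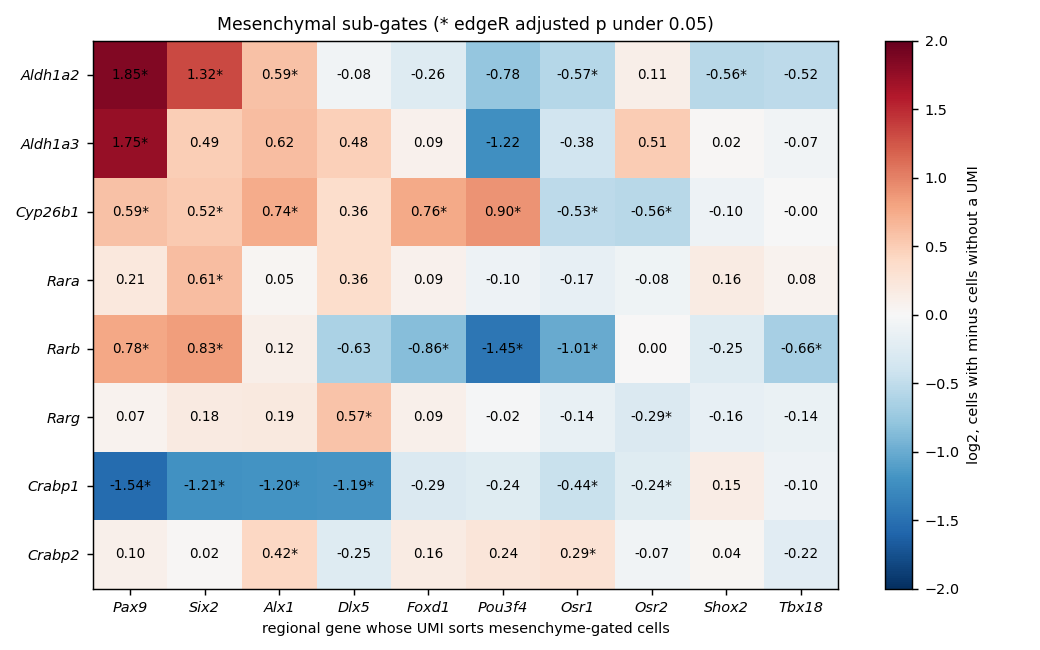
Heat map of the log2 difference in level between mesenchyme cells with and without a UMI of each of 10 factors, 1 column per factor and 1 row per tested gene; colour is the edgeR log2 difference and a star marks an adjusted p under 0.05. Aldh1a2 and Rarb are raised with Pax9 and Six2 while Crabp1 is lowered, and Cyp26b1 is raised with Pou3f4 and Foxd1 while Rarb is lowered.

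Joint detection in single cells was read after thinning to 3000 UMIs, which left 12545 cells. Over all of these cells, Rarb had a UMI in 34.0% (67 of 197), 28.4% (31 of 109), 30.3% (40 of 132) and 37.3% (63 of 169) of Aldh1a2-positive cells of control 1, control 2, mutant 1 and mutant 2. Among Aldh1a2-negative cells the shares were 12.2%, 14.9%, 9.35% and 10.6%. The share was higher among the positive cells in all 4 libraries. Within mesenchyme alone the shares were 24.4% (19 of 78), 14.3% (4 of 28), 20.4% (11 of 54) and 41.5% (27 of 65) against 12.3%, 13.7%, 8.38% and 10.3%, so in control 2 they were nearly equal. Thinned macrophages had a Rarb UMI in 0% to 1.39% of cells. Crabp1, in mesenchyme, was found in fewer Aldh1a2-positive cells (38.5%, 50%, 31.5% and 30.8%) than negative cells (52.9%, 58.6%, 51.7% and 51.4%). Cyp26b1 had no single direction, with 10.3%, 0%, 9.26% and 4.62% of Aldh1a2-positive mesenchyme cells against 8.84%, 6.26%, 10.7% and 8.19% of negative ones. The share of 0% in control 2 was of 28 cells, for which the exact 95% binomial interval reaches 12.3%. Such shares carry counting error within a library, and cells of 1 library are not replicates.

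**Figure D3:**
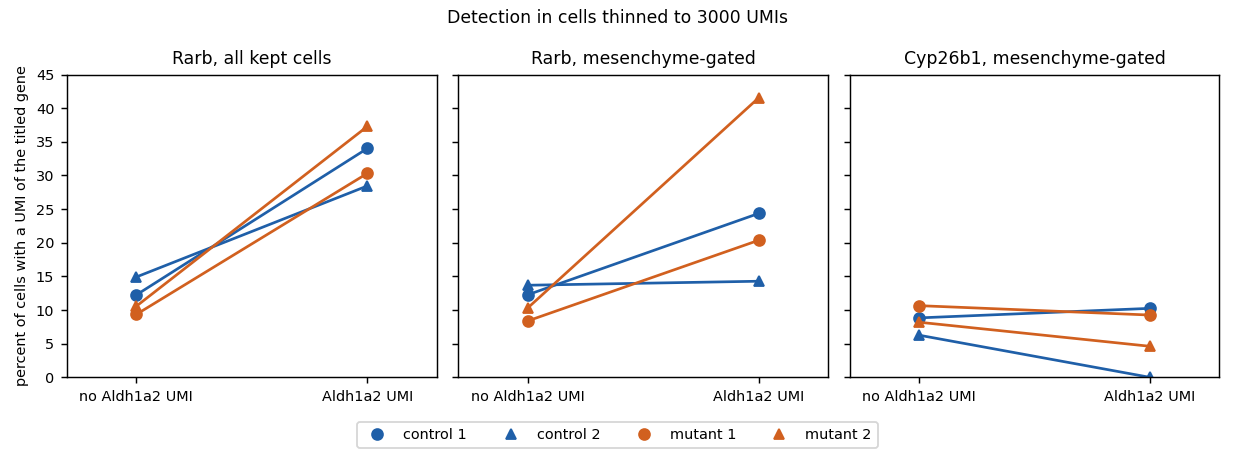
Percent of thinned cells with a UMI of Rarb (all kept cells, then mesenchyme) or of Cyp26b1 (mesenchyme) among cells without and with an Aldh1a2 UMI, with 1 line per library. The Rarb lines rise toward the Aldh1a2-positive cells in each library, from 14.9% or less to 28.4% or more over all cells, and in mesenchyme the Cyp26b1 line rises in control 1 (8.84% to 10.3%) and falls in the other 3 libraries.

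Control and mutant libraries were then compared within each class. No member passed an adjusted p of 0.05 by edgeR in any of the 9 classes (0 of 49 tests of a member in a class; 7 had an unadjusted p under 0.05; 0 by the DESeq2 Wald test). Few genes of any kind did: 0.876% of genes in mural cells, 0.152% in macrophages, 0.0933% in endothelial cells, 0.00889% in keratinocytes, 0.00683% in mesenchyme, and 0.0% in glia, olfactory epithelial cells, chondrocytes and osteoblasts. Over all kept cells 0 of 10 members and 0.0% of 18080 genes passed edgeR, with 883 genes, Cyp26b1 among them, at an unadjusted p under 0.05. DESeq2 called 30 genes over all cells. Over all cells, Aldh1a2 was at 21.2, 20.4, 21.9 and 20 CPM and Rara at 30.9, 30.9, 29.3 and 30.9 CPM, the control and mutant values lying within 2 CPM of one another. Cyp26b1 was at 22.5, 20.9, 31.6 and 25.3 CPM, higher in both mutants than in both controls (0.35 ± 0.13 on the log2 scale, edgeR adjusted p = 0.91).

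The closest to a difference was Aldh1a2 in mural cells. The controls held 27.6 and 22.8 CPM and the mutants 108 and 56.6 CPM, from 18, 11, 52 and 28 UMIs in 65, 47, 40 and 57 cells. Both mutants lay above both controls. The log2 difference was 1.64 ± 0.37 (SE, n = 2 against 2), with an unadjusted p of 0.00050 and an edgeR adjusted p of 0.0508. Without mutant 1 the difference was 1.08 with an edgeR adjusted p of 0.407, whereas it passed without any other library (adjusted p from 2.76e-05 to 0.021). Over thinned cells, 7.81%, 2.13%, 21.6% and 16.1% of mural cells had an Aldh1a2 UMI (5 of 64, 1 of 47, 8 of 37 and 9 of 56), with an exact permutation p of 0.333, the smallest that 2 against 2 libraries allow. The test of whether the mural difference exceeded that in mesenchyme gave 1.56 ± 0.44 (edgeR adjusted p = 0.20; 0.341% of genes called).

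Rarb in mural cells lay the other way, with 79.8 and 97.6 CPM for the controls and 51.8 and 36.4 CPM for the mutants. The groups did not overlap. It fell by 1.03 ± 0.30 on the log2 scale, with an unadjusted p of 0.0033 and an edgeR adjusted p of 0.147. Over thinned cells 18.8%, 25.5%, 13.5% and 5.36% of mural cells had a Rarb UMI, with an exact permutation p of 0.333. Crabp1 in mural cells ranged from 141 to 405 CPM, and the groups overlapped.

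Some markers of the mural class moved beside these values. The smooth muscle genes Acta2 (1407, 891, 2263 and 2224 CPM), Tagln (610.5, 521, 1151 and 1020.3 CPM) and Myh11 (56.8, 12.5, 112 and 129 CPM) were higher in both mutants. The pericyte genes Vtn (322, 413, 29.0 and 28.3 CPM) and Rgs5 (1054, 961, 769 and 628 CPM) were lower in both. Other mural markers did not follow. The groups overlapped for Kcnj8 (311, 160, 147 and 277 CPM), Abcc9 (324, 268, 317 and 378 CPM) and Cspg4 (61.4, 99.7, 68.4 and 62.6 CPM). Notch3 (204, 185, 228 and 222 CPM) was slightly higher in both mutants. The 9 mural markers summed to 4350, 3511, 5085 and 4970 CPM. Markers of meningeal mesenchyme, the class with the highest Aldh1a2, summed to 129, 172, 43.6 and 34.3 CPM, lower in the mutants, and 4 of 7 were at 0 (Slc6a13, Slc22a6, Ptgds and Gjb2). The 10 mesenchyme markers summed to 6619, 8769, 6973 and 6853 CPM in mural cells, against 10085, 9324, 8245 and 9645 CPM in mesenchyme. The 10 dissociation stress genes summed to 2577, 2648, 2806 and 3608 CPM, more in both mutants. The part of the mix of mural cells, and of stress, in the differences of Aldh1a2 and Rarb was not tested.

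**Figure D4:**
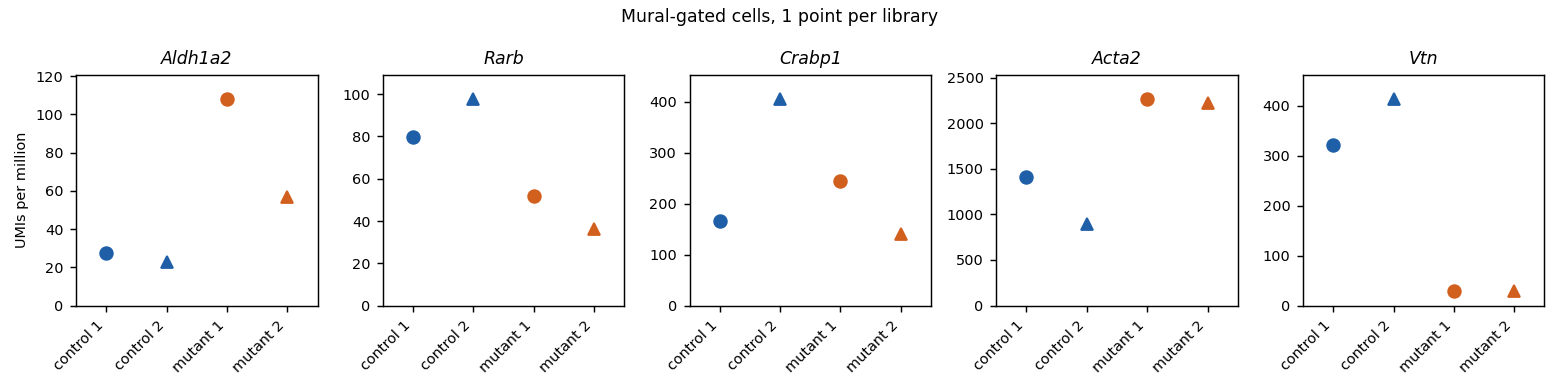
Levels in mural cells of Aldh1a2, Rarb and Crabp1, and of the smooth muscle gene Acta2 and the pericyte gene Vtn, as CPM of summed counts, 1 point per library. Both mutants lie above both controls for Aldh1a2 and Acta2 and below them for Rarb and Vtn.

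In glia, the class gated on Sox10 and other glial genes, 4 members could be tested in 45, 28, 32 and 22 cells. Crabp1 reached 70.7 and 63.5 CPM in control glia against 5.36 and 29.4 CPM in mutant glia, from 32, 16, 2 and 5 UMIs. Both mutants were lower, but 13 UMIs of each control came from 1 cell. It fell by 2.37 ± 0.60 on the log2 scale, with an unadjusted p of 0.0028 and an edgeR adjusted p of 0.90. Against the change in mesenchyme it fell further by 2.17 ± 0.45 (edgeR adjusted p = 0.00432; 0.248% of genes called), the only such call among the members in the 8 classes compared with mesenchyme. The share of all genes called in this way was 0.533% in endothelial cells, 0.322% in macrophages, 0.0141% in olfactory epithelial cells and 0.0% in keratinocytes, chondrocytes and osteoblasts. That call was lost without control 1 (adjusted p = 0.105) and without mutant 1 (fell by 1.06, adjusted p = 1.0). Crabp1 is abundant in mesenchyme, whose 10 markers summed to 1988, 797, 1096 and 1540 CPM in glia, and their part in the result was not tested. Crabp2 in glia was at 161, 135, 91.1 and 76.4 CPM, lower in both mutants (fell by 0.87 ± 0.28, edgeR adjusted p = 0.90). The 10 genes of a list of dissociation stress, such as the heat shock gene Hspa1a, summed to 1663, 1103, 2409 and 2509 CPM in glia, more in both mutants, and their part in the Crabp1 and Crabp2 values was not tested.

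In mesenchyme Crabp1 was lower in both mutants, at 632 and 627 CPM against 730.4 and 749 CPM (fell by 0.28 ± 0.10, unadjusted p = 0.024, edgeR adjusted p = 0.57), and Aldh1a3 rated 6.63 and 3.07 CPM in controls beside 8.21 and 9.59 CPM in mutants (0.75 ± 0.31, edgeR adjusted p = 0.61). Without control 1 the Aldh1a3 difference was 1.47 with an edgeR adjusted p of 0.0242. In keratinocytes Crabp2 was at 97.1, 80.6, 60.1 and 72.7 CPM, lower in both mutants (fell by 0.46 ± 0.16, edgeR adjusted p = 0.80). In olfactory epithelial cells Rarb was at 38.4, 6.03, 85.6 and 46.9 CPM, with both mutants higher (1.22 ± 0.53, edgeR adjusted p = 1.0). A large part of the mutant 1 UMIs came from 1 cell, as given above. Over thinned cells, 9 of 77, 1 of 20, 6 of 54 and 6 of 58 olfactory epithelial cells had a Rarb UMI. Without control 1, when control 2 with 21 cells was the lone control, the Rarb difference was 3.45. Crabp1 in macrophages was at 7.35, 109.7, 1.74 and 12.1 CPM and stood out in control 2 alone. Keratinocyte Cyp26a1, high in control 1 alone, passed only without a filter on low counts or without control 2.

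Non-overlap of the groups, both mutants above or both below both controls, was read against all detected genes. In mesenchyme 5 of 10 members did not overlap, where 34.5% of genes did not, and in mural cells 5 of 8 (30.9%). The counts were 4 of 10 in olfactory epithelial cells (29.0%), keratinocytes (31.1%) and chondrocytes (28.3%), 4 of 9 in osteoblasts (30.1%), 3 of 9 in glia (28.4%) and macrophages (29.0%), and 1 of 9 in endothelial cells (27.7%). Over all cells it was 4 of 10 (34.1%). By gene, Rarg did not overlap in 6 of 9 classes, Cyp26b1 in 5, and Rara, Rarb and Crabp2 in 4 each. Aldh1a3 and Crabp1 did not overlap in 3 each, Cyp26a1 in 2, and Aldh1a1 and Aldh1a2 in 1 each. The Aldh1a1 case was mesenchyme, with 10 UMIs in all. No share over all genes was computed for these counts by gene, and they do not separate directions. Cyp26b1 was lower in both mutants in keratinocytes and higher in both in endothelial cells, mural cells, osteoblasts and mesenchyme. Endothelial cells held only 9 Cyp26b1 UMIs in all and mural cells 17. In mesenchyme mutant 2 lay barely above control 1, as the values given earlier show.

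**Figure D5:**
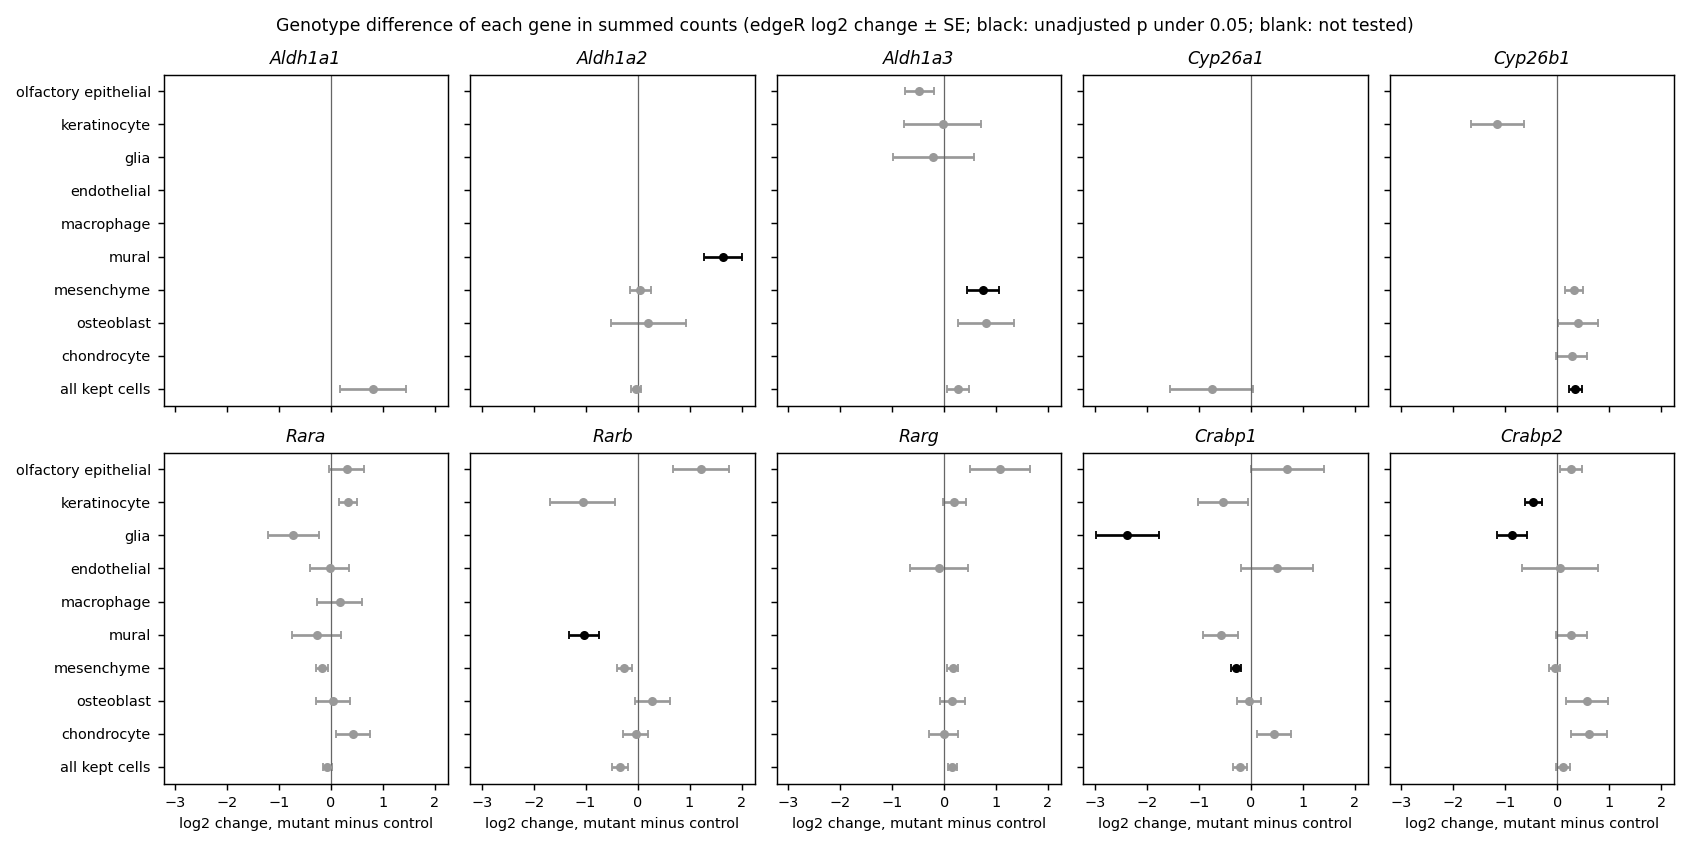
Log2 difference of mutant minus control for each tested member in each class, and over all kept cells, with the edgeR standard error as bars and black points for an unadjusted p under 0.05. The mural Aldh1a2 and Rarb points and the glial Crabp1 point lie farthest from 0 relative to their bars, and no point passes an adjusted p of 0.05.

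The other genes of the pathway were taken from lists of 12 genes for retinol uptake, storage and oxidation, 8 other receptors and partners, and 13 genes known to respond to retinoic acid. Between genotypes, the other receptors and the responsive genes had 0 calls in each of the 9 classes and over all cells, by edgeR and by DESeq2, with 0 or 1 receptor genes and 0 to 4 responsive genes per class at an unadjusted p under 0.05. The responsive genes with the lowest unadjusted p were Nr2f1 in olfactory epithelial cells (32.7, 66.3, 3.05 and 12.6 CPM, unadjusted p = 0.0043) and Nr2f2 in mesenchyme (63.0, 65.1, 47.6 and 48.6 CPM, unadjusted p = 0.0013, edgeR adjusted p = 0.33), both transcription factors of the COUP family. Median log2 differences of the responsive list were -0.02 in mesenchyme and 0.04 in mural cells, beside medians of 0.0 for all genes.

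Across classes, Aldh1a2 was higher in mural cells and mesenchyme among those tested. Both had more responsive genes higher than lower, but so did keratinocytes, where Aldh1a2 was scarce. Mural cells carried high levels of mesenchyme markers, as given above, so mural cells and mesenchyme are not separate cases. In mesenchyme 6 of 11 tested responsive genes were higher (29.2% of all genes) and 2 lower (18.4%), with a median log2 difference of 1.21 against 0.04 over all genes, and in mural cells 6 were higher (15.9%) and 0 lower (6.98%), with a median of 0.75 against -0.01. Nr2f1 (3.32 ± 0.23), Nr2f2 (2.78 ± 0.20), Hic1 (4.07 ± 0.32) and Rarres2 (4.6 ± 0.34) led in mural cells, with edgeR adjusted p from 5.04e-14 to 3.94e-12. Keratinocytes, with scarce Aldh1a2, had 7 of the 11 higher (27.1%) and 3 lower (22.1%; median 0.49), led by Meis2 (2.76 ± 0.20), while osteoblasts had 0 higher (20.5%) and 4 lower (12.9%). Tgm2, a transglutaminase, was higher in chondrocytes (3.24 ± 0.32, edgeR adjusted p = 2.96e-10). Rdh10, which oxidises retinol, was higher in mesenchyme (0.63 ± 0.17, edgeR adjusted p = 0.00204) and olfactory epithelial cells (0.63 ± 0.25, 0.0375), and was not called in mural cells (0.17 ± 0.33, 0.80). Among receptors and partners, the retinoid X receptor Rxrg was higher in glia (5.70 ± 0.52, edgeR adjusted p = 5.99e-10) and chondrocytes (3.09 ± 0.66, 0.000478), and Fabp5, a fatty acid binding protein that can carry retinoic acid, in keratinocytes (2.76 ± 0.12, 2.15e-20).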

How the data were processed

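Whole noses at embryonic day 14.5 gave 4 single-cell libraries. The deposited matrices hold UMI counts per gene and barcode, made by the authors with Cell Ranger: per the file headers version 8.0.1, per the submitters' processing notes version 4 with Seurat 4.3.0, and this was not reconciled. Positions are from GENCODE M21.

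Cells were kept at 500 or more genes and 10% or fewer mitochondrial UMIs. Scrublet's automatic threshold marked 0 to 2 cells per library and had not worked, so doublets were kept, and removal of top-scored cells (0.8% per 1000 barcodes) was an alternative. A class needed a mean standardised marker score of 1, a lead of 0.5 and 3 detected markers; mesenchyme needed every other score under 0.5. Summed counts of each class and library went into the quasi-likelihood test of edgeR 4.0.16 (R 4.3.3), with TMM factors and its default filter on low counts, adjusted by Benjamini-Hochberg over all genes of a class or sub-gate; tests across classes and sub-gates held library as a term. Standard errors are the log2 change over the square root of F. Scripts were tested on simulated data. DESeq2 1.42.0, limma 3.58.1 and other alternatives are in the closing section. Intervals and limits for a count of 0 (3 counts) cover counting error only. The labels describe 2 noses per genotype without tying noses to libraries, so p-values measure the spread between these libraries. Members, lists and tests were chosen with earlier results of these data known. All 10 members are named; from each list, genes called in a class (at most 10) or the 2 with the lowest unadjusted p were eligible, and a few of these are named. The responsive genes Dhrs3, Stra6 and Nrip1 are in another list too. An item of the retinol list is not reported here.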

Additional observations from a re-analysis of the deposited data

Results flagged for a closer look

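The change of Crabp1 in glia relative to that in mesenchyme was -2.17 on the log2 scale, mutant minus control. It was singled out because the difference between the classes itself passed its test. It rests on 55 UMIs and was lost without control 1 and without mutant 1.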

How the results depend on the processing

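The values that alternatives changed were these. Between genotypes over the 9 classes, 83 genes passed, against 1560 with no filter on low counts, 170 with the replicate number as a block, 37 with stricter cells, 142 with a stricter gate, 46 with a looser gate and 272 to 2456 without 1 library, the most without control 1. Members that passed were 0, against 5 with no filter on low counts, 1 with DESeq2 size factors (mural Aldh1a2), 1 with doublets removed (mural Aldh1a2) and 1 to 9 without 1 library; the replicate block gave 0. Over all cells 0 genes passed, against 30 by DESeq2, 10 with no filter and 0 to 410 without 1 library. Replicate numbers of the titles pair no samples: same-numbered libraries deviated together with r from -0.144 in olfactory epithelial cells to 0.106 in glia. In olfactory epithelial cells the replicate block called 2 genes and the crossed pairing, added after seeing the data, 4, against 0.

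Across classes 24 member calls were higher and 17 lower, against 15 and 9 after thinning, where fewer members had counts enough to test, and 26 lower by limma. In the mesenchyme sub-gates 15 were higher and 15 lower, against 9 higher with 2 UMIs of the factor and 9 lower after thinning. The class by genotype test called 196 genes and 1 member, against 684 and 4 with no filter, and 223 to 1039 and 1 to 6 without 1 library.

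Signs turned for values that passed no threshold in the main analysis. With doublets removed, mutant minus control for keratinocyte Crabp1 was 0.20, and with a stricter gate mural Crabp1 was 0.50. Glial Aldh1a2 against other classes was -1.33 by limma and -5.37 with doublets removed, and osteoblast Aldh1a2 was -0.69 with a stricter gate. Shox2-positive minus negative Crabp1 was -0.064 with 2 UMIs and -0.028 after thinning. After thinning Crabp2 was -0.13 with Pou3f4 and 0.030 with Tbx18, and Aldh1a2 was 0.20 with Foxd1. Leaving out 1 library, ranges that crossed 0 were -1.01 to 1.16 for keratinocyte Crabp1, -1.89 to 0.75 for keratinocyte Rarb and -1.11 to 0.17 for mural Crabp1 between genotypes. Across classes they were -5.46 to 1.14 for glial Aldh1a2, -1.25 to 0.35 for keratinocyte Cyp26b1 and -0.087 to 1.46 for mesenchyme Aldh1a3, and in sub-gates -0.20 to 0.059 for Crabp1 with Tbx18 and -0.48 to 0.073 for Aldh1a2 with Foxd1. The cause of these changes was not tested. Member values that passed no threshold under any setting were not followed through the alternatives. With 2 libraries per group and few cells in most classes, a small change in a member with few UMIs was not detectable at this depth.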
